A study of Mus musculus with 23 samples.

Results

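Reverted embryonic stem cells (rESCs) were compared with the epiblast stem cells (epiSCs) from which such lines are made. The members were all arrays titled rESC and all titled EpiSC that could be assigned to a line, 5 of each and 10 of the 23 arrays of the series, with the Blimp1 genotypes pooled. Every line carried at least 1 mutant Blimp1 allele, on a mixed C57Bl6/CBA/129 background, so no wild-type epiSCs or rESCs were measured. The Blimp1 +/- arrays were the epiSC lines BL3, BL4 and BL7 and the rESC lines BL3 and BL7. The Blimp1 -/- arrays were the epiSC lines BL2 and BL6 and the rESC lines J2.3, BL2 and BL6. The epiSCs came from postimplantation epiblasts and grew on mouse embryonic fibroblast (MEF) feeders in serum-free medium with activin A and basic FGF. The rESCs were obtained by moving epiSCs onto feeders in medium with fetal calf serum and leukemia inhibitory factor (LIF). Medium, passaging and cell state changed together, so their parts in any difference below cannot be told apart. Each line gave 1 array per state, and 4 lines (BL2, BL3, BL6 and BL7) were measured in both states.

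An epiSC resembles the epiblast after implantation. It depends on activin and FGF, and it is described as primed because it already transcribes low levels of lineage genes. An embryonic stem cell (ESC) resembles the epiblast before implantation, and self-renews in response to LIF. The states are known to differ in signalling, in cell contacts, in DNA methylation and, in female cells, in the activity of the X chromosomes.

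RNA was measured on bead arrays (Illumina Mouse WG-6 v2), 1 channel per sample. Levels below are log2 signals after background correction and quantile normalization, a change is the mean level in rESCs minus the mean level in epiSCs with its SE, and calls are those with a Benjamini-Hochberg adjusted p under 0.01 in limma, over every probe tested. Each array detected between 12197 and 14599 of its 45281 probes at a detection p under 0.01. Levels of single arrays are given in the order BL3, BL4, BL7, BL2 and BL6 for epiSCs and BL3, BL7, J2.3, BL2 and BL6 for rESCs. In bulk RNA, fewer cells of a type and less RNA per cell cannot be told apart.

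The 4 marker genes followed the labels. Esrrb and Klf2, transcription factors of naive ESCs, were called higher in rESCs (changes of 5.01 ± 0.92 and 4.07 ± 0.55), and the primed epiblast genes Fgf5 and Lhx1 were called lower (-2.86 ± 0.27 and -3.14 ± 0.18). Esrrb nevertheless reached 10.80 in the BL6 epiSCs, against 4.92 to 7.64 in the other 4 epiSC lines. The BL6 epiSC array stood apart in general. On probes called higher in rESCs when that array was left out, its median position was 52.7% of the way from the other epiSCs to the rESCs, and on probes called lower it was 26.7% of the way. The other epiSC arrays lay between -14.5% and -1.32% on the former probes. Among the rESCs the J2.3 array lay nearest the epiSCs on the higher probes (18.5%), while on the lower probes BL2 and J2.3 were at 9.69% and 8.44%. The median level of 23 fibroblast markers was 6.89 in the J2.3 rESCs, the highest of the 10 arrays. It was 5.60 to 6.13 in the other rESCs, 5.32 to 5.73 in epiSCs and 9.77 in the MEF array.

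**Figure D1:**
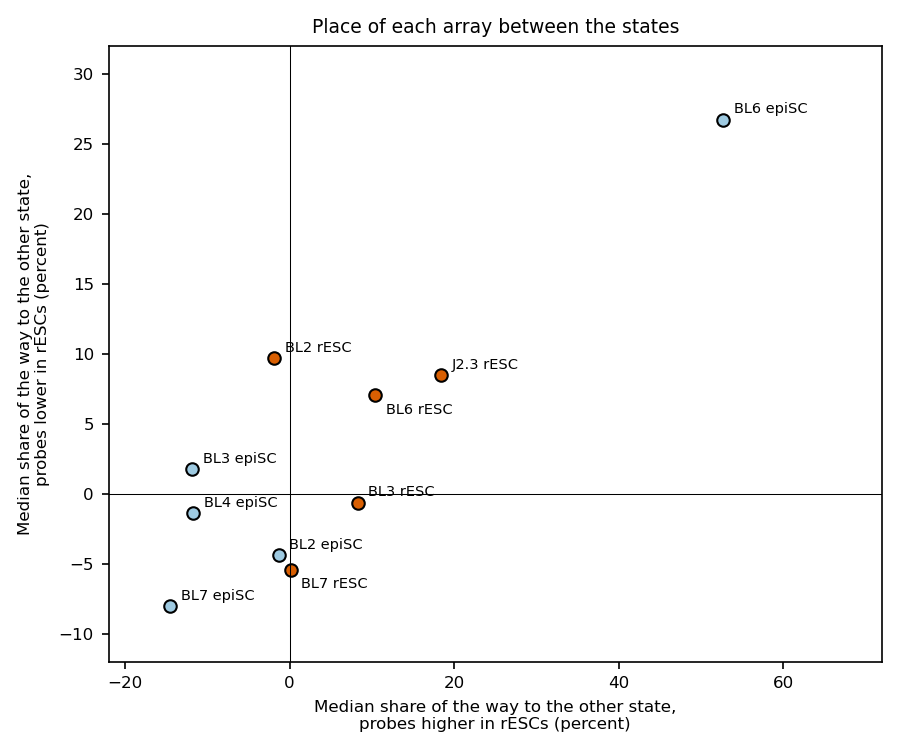
Median share of the way that each array lay toward the other state, on probes called higher in rESCs (x axis, percent) and on probes called lower (y axis, percent), each array placed on probes called without it. The BL6 epiSC array lay at 52.7% and 26.7%, beyond every other array on both axes.

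Across the 13418 probes detected on at least 5 of the 10 arrays, 3108 were called (23.2%), 1429 higher (10.6%) and 1679 lower (12.5%). With 1 probe for each of 8175 named genes, 2057 genes were called (25.2%), 874 higher (10.7%) and 1183 lower (14.5%), and the median change over all genes was -0.03. These shares are the background for each gene list below. The states did not overlap, with all rESC levels the higher ones, at 1529 probes (11.4%), and with all rESC levels the lower ones at 1890 (14.1%). The called rises were less even among the epiSCs than the called falls: 51 genes called higher had an epiSC SD above 1 on the log2 scale, against 6 genes called lower. Without the BL6 epiSC array 3420 probes were called, and without both it and the J2.3 rESC array 3845.

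The 15 genes that rose most outside the pluripotency gene lists were chosen for the size of the change and for groups that did not overlap. Ooep, a component of the maternal complex under the oocyte cortex, was at 4.65, 4.61, 7.93, 4.49 and 10.52 in the epiSCs and 11.98, 12.39, 12.08, 11.99 and 11.22 in the rESCs (log2 change 5.49 ± 1.02, adjusted p = 0.0015). Rps4l, a paralog of a ribosomal protein gene whose probe may also read its relatives, was at 5.26, 5.65, 7.25, 5.74 and 10.78 in the epiSCs and 11.33, 11.59, 11.50, 11.50 and 11.43 in the rESCs (log2 change 4.53 ± 0.85, adjusted p = 0.00162). Rbmxl2, a testis RNA-binding protein, was at 4.34, 4.25, 4.73, 4.38 and 8.15 in the epiSCs and 9.45, 9.84, 9.28, 9.49 and 9.67 in the rESCs (log2 change 4.37 ± 0.63, adjusted p = 0.000326). In each of the 3 genes the BL6 epiSCs were the highest epiSCs by over 2 log2 units and, as the choice of genes required, below every rESC array. The BL6 array was the highest epiSC array for all 15 genes, and BL7 was next for 12 of them.

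The Zscan4c probe, for a zinc finger gene that is active in cleavage embryos and in a changing fraction of ESCs, gave no signal in epiSCs. It was not detected on any epiSC array (4.32, 4.56, 4.44, 4.40 and 5.24) and was detected on every rESC array, at 8.14, 9.81, 10.17, 6.78 and 7.79. The rESCs were thus at least 10.3-fold higher (log2 change 3.95 ± 0.55, adjusted p = 0.000274), with an SD among rESCs of 1.43 that was the widest of the 15. Zscan4 genes are near-identical copies, so the probe may read several of them. Gene products of epithelia rose as well: the tight junction claudin Cldn4 by 3.74 ± 0.55, and the type I keratins Krt17 and Krt42 by 3.58 ± 0.31 and 3.52 ± 0.32. The Krt17 levels were 4.45, 4.53, 4.56, 4.57 and 6.07 in the epiSCs and 8.45, 8.65, 8.65, 8.61 and 7.70 in the rESCs, a separation that the BL6 epiSCs narrowed but did not close. The others among the 15 were Dnmt3l (5.28), a partner of the de novo DNA methyltransferases, the secreted phospholipase Pla2g1b (4.52), the myosin light chain Mylpf (4.07), the apolipoprotein Apoc1 (3.81), Fam25c (3.84), and the germ line genes Gtsf1l, Tdrd12 and Tex19.1 described below. Ooep and Fam25c lost their call with the cell line as a block (adjusted p = 0.0115 and 0.0141). On arrays normalized together, the rESC mean was within 1 log2 unit of that of ESCs in serum for 14 of the 15 genes.

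The 15 largest falls were chosen in the same way. Igfbp5, a binding protein for insulin-like growth factors (chromosome 1, 72858065 to 72874865 in the GRCm38.p6 annotation), was at 11.04, 11.47, 12.22, 11.33 and 11.60 in the epiSCs and 5.63, 5.83, 6.34, 6.01 and 6.43 in the rESCs (log2 change -5.48 ± 0.22, adjusted p = 1.54e-07). Ptn, the heparin-binding cytokine pleiotrophin (chromosome 6, 36714924 to 36810179), was at 9.61, 9.63, 10.23, 9.64 and 9.44 in the epiSCs and 4.80, 4.70, 4.32, 4.69 and 5.06 in the rESCs (log2 change -4.997 ± 0.18, adjusted p = 5.42e-08). It was detected on no rESC array and was at least 22.2-fold lower there. The rESC levels of both genes lay more than 4 log2 units below every epiSC level.

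The MEF array had levels of 11.71 and 13.39 for these genes. Summed fibroblast marker signal was 4317 to 5253 in epiSCs, 14516 in the J2.3 rESCs and 4767 to 6942 in the other rESCs. The part of the feeders in these 2 falls was not tested. The long non-coding RNA Miat was at 8.92, 9.52, 10.85, 8.87 and 9.41 in the epiSCs and 4.60, 4.75, 4.49, 4.83 and 5.05 in the rESCs, undetected in rESCs and at least 19.4-fold lower (log2 change -4.77 ± 0.32, adjusted p = 2.5e-06). Its MEF level was 4.995. Ildr2, an immunoglobulin-domain membrane protein, and the claudin Cldn11 were likewise detected on no rESC array and were at least 12.8-fold and 10.2-fold lower.

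The homeobox gene En1, a regulator of midbrain and limb patterning, was at 9.13, 9.47, 10.06, 9.18 and 9.24 in the epiSCs and 4.65, 5.94, 7.51, 5.34 and 5.57 in the rESCs (log2 change -3.61 ± 0.43, adjusted p = 9.68e-05). The J2.3 rESCs kept the highest rESC level of En1, and the MEF level was 8.68. The neuropeptide galanin, Gal, was at 9.13, 9.03, 8.84, 9.13 and 7.10 in the epiSCs and 4.97, 4.72, 4.73, 4.77 and 5.54 in the rESCs (log2 change -3.70 ± 0.36, adjusted p = 2.67e-05), with BL6 the lowest epiSC line. The remaining genes were Mfap2, a protein of elastic microfibrils (-3.96), the membrane carbonic anhydrase Car14 (-3.90), Nrep (-3.75), Nnat (-3.61), Gdpd3 (-3.53), the carbohydrate sulfotransferase Chst1 (-3.48) and 6330403K07Rik (-3.61). Shh also belonged to the 15 and is described with its pathway. MEF levels exceeded 7 for 8 of the 15 genes.

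**Figure D2:**
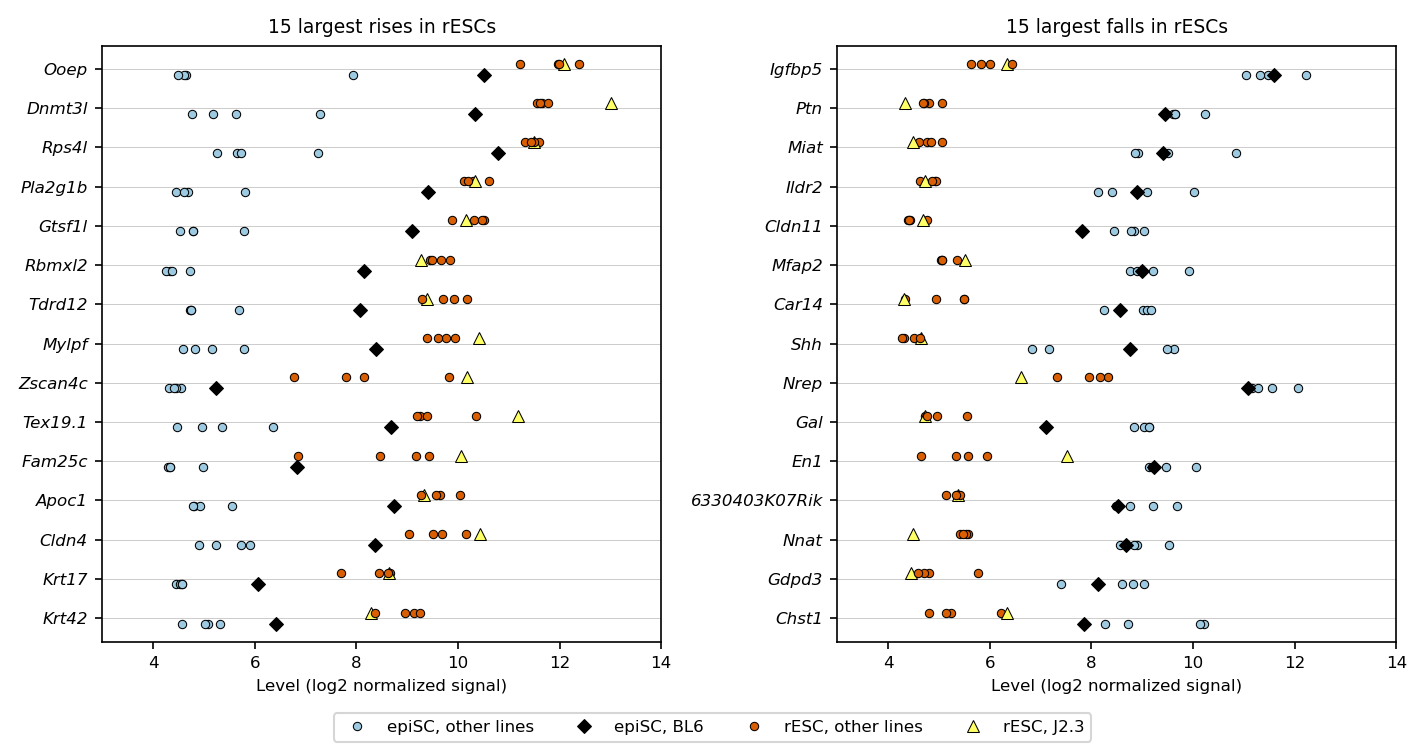
Level of the 15 largest rises and 15 largest falls (x axis, log2 normalized signal) on each of the 10 arrays, with epiSCs drawn below and rESCs above each gene's line. The BL6 epiSCs (black diamonds) are the highest epiSCs for every rise. The 30 genes were chosen to have no overlap between the epiSC and rESC arrays.

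Activin and Nodal signal through Smad2 and Smad3 and induce their own antagonists, the Lefty proteins. Of 20 pathway members tested, 3 were called higher and 7 lower, with a median change of -0.30. Among the ligands, Nodal itself was not called (log2 change 0.13 ± 0.19, adjusted p = 0.631), while Gdf3 rose by 1.79 ± 0.26 to 9.40, 9.64, 9.39, 9.07 and 9.16, above all epiSC levels (7.60, 7.17, 7.14, 7.19 and 8.58). Pcsk6, a convertase that cleaves the Nodal precursor, was at 5.07, 5.17, 5.44, 5.06 and 7.16 in the epiSCs and 8.21, 8.44, 8.31, 8.12 and 8.32 in the rESCs (log2 change 2.70 ± 0.35, adjusted p = 0.000161), and the BL6 epiSCs were again nearest to the rESCs.

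Of 5 receptors or co-receptors 2 were lower and 0 higher. Tgfbr1, a type I receptor, fell by 1.21 (adjusted p = 2.74e-05) and Acvr2b, a type II receptor, changed by -0.81 ± 0.14. Smad3 was at 8.70, 8.95, 9.09, 8.80 and 8.57 in the epiSCs and 6.95, 7.20, 7.82, 7.04 and 7.07 in the rESCs (log2 change -1.61 ± 0.18, adjusted p = 5.93e-05), whereas Smad2 was not called (-0.12 ± 0.14). The inhibitors Lefty1, Lefty2 and follistatin (Fst) changed by -1.80 ± 0.25, -1.68 ± 0.23 and -2.20 ± 0.31, and all 3 were separated between the states. Gsc, the organizer homeobox gene and a Nodal target, was at 8.63, 8.89, 7.84, 8.66 and 7.83 in the epiSCs and 5.04, 5.89, 5.40, 5.03 and 4.92 in the rESCs (log2 change -3.12 ± 0.25, adjusted p = 8.08e-06).

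In the BMP pathway 1 of 14 members was called higher and 5 lower. Bmp4, the ligand that with LIF supports ESC self-renewal, was at 5.90, 6.27, 6.08, 5.84 and 8.35 in the epiSCs and 9.84, 8.96, 8.25, 9.34 and 9.33 in the rESCs (log2 change 2.66 ± 0.46, adjusted p = 0.000962). Here the groups overlapped: the BL6 epiSCs (8.35) were above the J2.3 rESCs (8.25). The extracellular BMP antagonist Chrd was at 8.81, 9.43, 8.66, 8.77 and 7.87 in the epiSCs and 5.41, 5.32, 4.78, 5.56 and 5.78 in the rESCs (log2 change -3.34 ± 0.26, adjusted p = 6.86e-06), with no overlap. The direct targets Id1, Id2 and Id3 were not called (0.47, -0.59 and -0.06). The count of 5 lower members was fragile, at 2 when the BL4 epiSC, BL3 rESC, BL7 rESC or BL2 rESC array was left out and 3 without the epiSC array of BL3, BL7 or BL2, but the calls of Bmp4 and Chrd held in each of these fits.

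FGF signalling through Erk drives ESCs toward lineage commitment and maintains epiSCs. Of 22 pathway members 7 were called higher and 4 lower. Among the ligands Fgf5, Fgf8 and Fgf15 were called lower and Fgf4 and Fgf10 higher. Fgf4, the ligand made by the inner cell mass and ESCs, was at 4.41, 4.42, 4.48, 4.64 and 6.74 in the epiSCs and 7.17, 8.31, 7.66, 7.56 and 6.80 in the rESCs (log2 change 2.56 ± 0.44, adjusted p = 0.000943). The BL6 epiSCs were the exception among the epiSCs and reached the level of the BL6 rESCs within 0.1 log2 units. The call of Fgf4 did not hold with the cell line as a block (adjusted p = 0.0152). Fgf15 was at 8.44, 7.74, 8.63, 7.36 and 7.06 in the epiSCs and 6.21, 6.39, 6.03, 5.53 and 6.16 in the rESCs (log2 change -1.78 ± 0.29, adjusted p = 0.000721), and Fgf10 changed by 1.05 ± 0.13.

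Of 7 feedback inhibitors 2 were called higher, and of 7 pathway targets 3, with 0 lower in both groups. The ETS factors Etv4 and Etv5 changed by 2.18 ± 0.25 and 1.90 ± 0.33, and the feedback inhibitor Spry4 was at 4.74, 5.13, 4.60, 4.97 and 5.80 in the epiSCs and 7.28, 6.58, 5.77, 7.40 and 7.54 in the rESCs (log2 change 1.86 ± 0.34, adjusted p = 0.00127). Spry4 in the J2.3 rESCs (5.77) was below that in the BL6 epiSCs (5.80), so the groups overlapped. Other feedback genes were not called, among them Dusp6 (-0.51) and Spred2 (-0.02), and so was the immediate early gene Egr1 (-0.10). Among probes detected on at least 8 arrays 4 of the pathway's genes were called higher. That filter does not test genes detected in only 1 state, and 2311 of 11196 probes were called under it (20.6%).

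WNT pathway ligands, receptors, inhibitors, transducers and targets each held members called lower. Of 27 members tested, 13 were called lower and 1 higher, with a median change of -0.81. The ligand Wnt8a was at 6.73, 8.27, 7.09, 7.29 and 6.76 in the epiSCs and 4.97, 4.35, 5.41, 4.77 and 4.85 in the rESCs (log2 change -2.36 ± 0.29, adjusted p = 0.000116), and the WNT potentiator Rspo3 was undetected in rESCs and at least 3.47-fold lower. The receptor Fzd2 was at 7.73, 7.90, 7.64, 7.91 and 7.17 in the epiSCs and 5.11, 4.51, 4.63, 5.33 and 4.69 in the rESCs (log2 change -2.82 ± 0.20, adjusted p = 2.79e-06), undetected on all 5 rESC arrays and at least 5.4-fold lower.

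The receptors Fzd10, Fzd6 and Fzd3 changed by -1.81 ± 0.20, -1.19 ± 0.20 and -0.92 ± 0.18, while Fzd7 and Fzd5 were not called (0.19 and 0.77). In the 4 lines with the line as a block, Fzd5 was called higher (0.99, adjusted p = 0.00758). Gsk3b, the kinase that marks beta-catenin for destruction, was at 9.13, 9.12, 9.32, 9.13 and 9.11 in the epiSCs and 8.09, 7.89, 8.27, 7.78 and 8.20 in the rESCs (log2 change -1.12 ± 0.12, adjusted p = 6.51e-05), a small but fully separated change. Tcf7l1, the repressor that opposes beta-catenin at pluripotency genes, changed by -0.98 ± 0.15. Beta-catenin itself, Ctnnb1, was not called (-0.81 ± 0.42, adjusted p = 0.155), nor was the target Axin2 (-0.48). The single member called higher over the 10 arrays was Notum, a secreted enzyme that inactivates WNT proteins, at 4.45, 4.53, 4.61, 4.58 and 5.23 in the epiSCs and 6.26, 6.58, 6.65, 6.11 and 6.57 in the rESCs and detected only on rESC arrays, at least 2.41-fold higher (log2 change 1.76 ± 0.17, adjusted p = 2.78e-05). Among probes detected on at least 8 arrays, which leaves out genes detected in only 1 state, 7 members were called lower.

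Hedgehog, Notch and retinoid genes, which pattern the embryo after gastrulation, also held more members called lower than higher. So did all genes tested (1183 lower and 874 higher). The retinoid list was small, with 2 lower and 1 higher of 6, and 0 lower among probes detected on at least 8 arrays. Of 7 Hedgehog members 4 were called lower and 0 higher. Shh was at 6.84, 9.63, 9.48, 7.17 and 8.75 in the epiSCs and 4.32, 4.50, 4.64, 4.28 and 4.63 in the rESCs, undetected in rESCs and at least 8.8-fold lower (log2 change -3.90 ± 0.50, adjusted p = 0.000146), with the epiSC lines spread over nearly 3 log2 units. Gli3, a transcriptional effector, changed by -1.88 ± 0.19 and Smo, the signal transducer, by -0.82 ± 0.14, whereas the receptor and target Ptch1 was not called (-0.52). Of 10 Notch members 5 were lower and 1 higher: the feedback target Nrarp was at 8.004, 7.54, 8.52, 8.18 and 7.78 in the epiSCs and 5.75, 4.77, 5.11, 5.93 and 5.57 in the rESCs (log2 change -2.58 ± 0.24, adjusted p = 2.13e-05), Hes6 changed by -1.39 ± 0.22, the receptor Notch3 by -1.53 ± 0.22 and the non-canonical ligand Dlk1 by -2.63 ± 0.39. Hes1 was not called (-0.29). In the retinoid list, Cyp26a1, which degrades retinoic acid, was at 6.98, 7.62, 6.81, 7.41 and 6.92 in the epiSCs and 4.59, 4.42, 4.56, 4.93 and 5.16 in the rESCs (log2 change -2.42 ± 0.19, adjusted p = 7.68e-06) and the binding protein Crabp2 changed by -2.3 ± 0.23, against a small rise of the receptor Rarg (0.74 ± 0.15).

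Of 22 insulin-like and heparin-binding growth factor genes, a list that holds Igfbp5 and Ptn, 10 were lower and 1 higher, with a median of -0.75. Igf2 was at 11.64, 11.77, 13.08, 11.48 and 12.37 in the epiSCs and 9.06, 9.49, 10.10, 9.79 and 9.60 in the rESCs (log2 change -2.46 ± 0.30, adjusted p = 0.000106), the receptor Igf1r changed by -1.60 ± 0.30, and the adaptor Grb10 by -3.15 ± 0.27. The heparin-binding factor Mdk, which is related to Ptn, changed by -1.63 ± 0.16, and the heparan sulfate carrier Sdc2 by -1.84 ± 0.26. The call of Igf1r did not hold with the cell line as a block (adjusted p = 0.013). Insr and Igf2r were not called (-0.49 and -0.50).

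Axon guidance genes, which act between neighbouring cells well beyond the nervous system, gave 9 lower and 2 higher members of 22. The ephrin Efnb1, an X-linked membrane ligand, was at 8.88, 8.85, 9.24, 9.08 and 8.69 in the epiSCs and 5.52, 5.18, 6.79, 5.65 and 5.86 in the rESCs (log2 change -3.15 ± 0.26, adjusted p = 7.95e-06). Efna5 changed by -2.21 ± 0.20, and the receptor Ephb1 was undetected in rESCs and at least 2.25-fold lower. The secreted semaphorin Sema3f and the plexin Plxna2 changed by -1.77 ± 0.26 and -1.81 ± 0.24. The endothelial receptor Robo4 went the other way, at 4.68, 4.98, 4.67, 4.56 and 6.26 in the epiSCs and 6.47, 6.75, 7.83, 6.38 and 6.94 in the rESCs (log2 change 1.85 ± 0.35, adjusted p = 0.00173). With probes detected on at least 8 arrays 4 members were called lower.

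**Figure D3:**
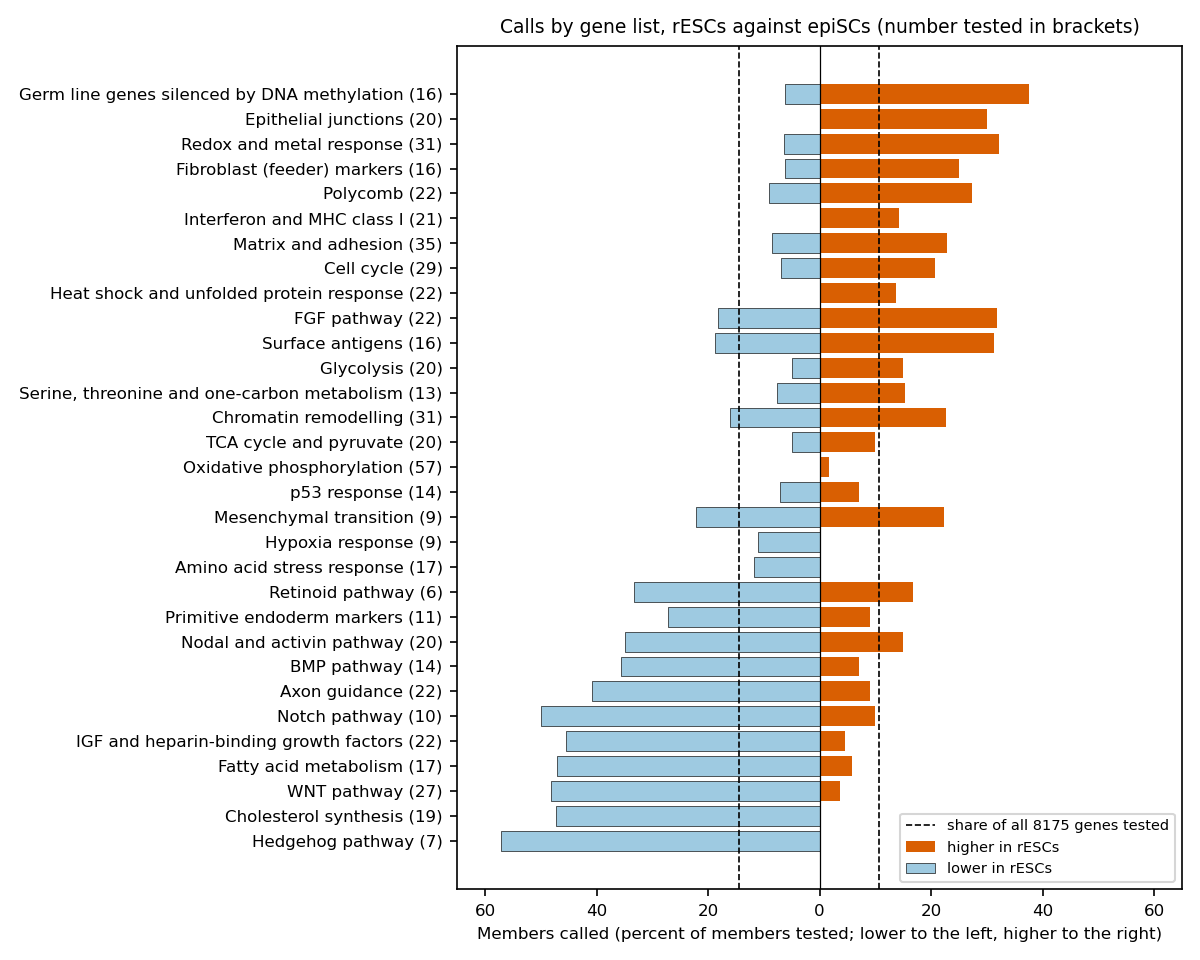
Share of tested members of each gene list called higher (to the right) or lower (to the left) in rESCs, in percent, for lists with at least 6 members tested; dashed lines mark the shares over all 8175 genes tested, 10.7% higher and 14.5% lower. The Hedgehog, WNT, Notch, IGF and lipid lists extend further to the left than to the right, while the FGF list and the germ line, junction and redox lists extend further to the right than to the left.

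Of 20 epithelial junction genes 6 were called higher and 0 lower, with a median of 0.58, although 3 were called higher when the BL2 epiSC array was left out. E-cadherin, Cdh1, was at 6.45, 6.32, 6.37, 6.08 and 7.27 in the epiSCs and 8.71, 7.80, 8.19, 8.17 and 8.65 in the rESCs (log2 change 1.81 ± 0.24, adjusted p = 0.000185), without overlap. The desmosomal cadherin Dsg2 changed by 1.52 ± 0.21 and Cldn4 as above. The simple epithelial keratins Krt8 and Krt18 were not called (1.04 ± 0.41 and 0.94 ± 0.50), nor were the gap junction genes Gja1 and Gjc1 (-0.30 and -0.43). Of the transcription factors that repress E-cadherin, Zeb1 and Zeb2 were lower (-1.27 ± 0.20 and -1.11 ± 0.18) and Snai1 and Snai2 were not called (0.51 and 0.40). Vimentin, Vim, a filament protein of mesenchyme, was not called (-0.67 ± 0.22, adjusted p = 0.033).

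Of 9 laminin and basement membrane genes 5 were called higher and 0 lower, within a matrix list of 35 with 8 higher and 3 lower. The linker Nid1 was at 5.005, 5.38, 5.25, 5.23 and 6.01 in the epiSCs and 6.95, 7.02, 7.95, 7.31 and 6.90 in the rESCs (log2 change 1.85 ± 0.23, adjusted p = 0.00014), and its paralog Nid2 and the proteoglycan perlecan, Hspg2, changed by 1.37 ± 0.24 and 1.41 ± 0.14. Fibronectin, Fn1, was at 6.43, 6.70, 6.93, 6.99 and 7.18 in the epiSCs and 8.79, 8.28, 8.93, 9.09 and 9.002 in the rESCs (log2 change 1.97 ± 0.19, adjusted p = 2.11e-05). The integrin subunit Itgb4, a partner of laminin in epithelia, was at 4.89, 4.39, 5.20, 4.51 and 5.60 in the epiSCs and 6.74, 6.95, 7.31, 7.24 and 7.23 in the rESCs (log2 change 2.17 ± 0.22, adjusted p = 3.91e-05). Serpinh1, the collagen chaperone, went down, at 11.996, 11.82, 11.90, 12.14 and 11.58 in the epiSCs and 9.15, 9.57, 10.61, 9.55 and 10.11 in the rESCs (log2 change -2.09 ± 0.24, adjusted p = 8.47e-05).

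The MEF array had levels of 11.38 for Fn1, 9.02 for Nid1, 11.12 for Hspg2, 5.63 for Itgb4 and 13.88 for Serpinh1. Of 16 fibroblast markers tested 4 were called higher in rESCs (Thy1, Bgn, Lox and Prrx1) and 1 lower (Sfrp1). The calls of Prrx1 and Sfrp1 were lost in 12 and 8 of 20 alternative fits. Of the markers 23 of 23 with a probe were detected in MEFs against 12 to 18 per epiSC array and 14 to 18 per rESC array. Lox, which crosslinks collagen, was at 6.50, 5.92, 6.31, 7.01 and 6.58 in the epiSCs and 7.74, 8.12, 10.02, 8.09 and 8.08 in the rESCs (log2 change 1.95 ± 0.38, adjusted p = 0.00208), highest in the J2.3 rESCs. Without the J2.3 array the changes were 1.94 for Fn1, 1.67 for Nid1 and 1.54 for Lox, each still called, and 6 matrix genes were then called lower in place of 3. Without the BL7 rESC array 1 matrix gene was called lower. The part of the feeders in these changes was not tested.

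Among the metabolic lists those of lipids held the largest shares of calls. Of 12 enzymes of cholesterol synthesis tested, 8 were called lower and 0 higher, and the whole list of 19 had 9 lower and a median change of -0.79. Msmo1, a sterol methyl oxidase, was at 10.71, 10.54, 10.61, 10.85 and 10.15 in the epiSCs and 9.07, 9.20, 8.48, 9.21 and 8.78 in the rESCs (log2 change -1.63 ± 0.18, adjusted p = 5.72e-05). Sqle, squalene epoxidase, was at 10.72, 10.83, 10.64, 10.77 and 10.61 in the epiSCs and 9.61, 9.74, 9.54, 9.75 and 8.81 in the rESCs (log2 change -1.22 ± 0.18, adjusted p = 0.000313). The epiSC levels of Sqle lay between 10.61 and 10.83, and no rESC level overlapped them.

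Hsd17b7, Fdps and Cyp51 changed by -1.41 ± 0.16, -0.98 ± 0.17 and -0.98 ± 0.20, and the other called enzymes Dhcr7, Mvd and Lss, named after their values were seen, by -1.07 ± 0.27, -1.04 ± 0.22 and -0.77 ± 0.17. The calls of Dhcr7 and Lss were lost in 11 and 5 of 20 alternative fits. Nsdhl narrowly missed the threshold (-0.80 ± 0.21, adjusted p = 0.0118), and Ebp and Tm7sf2 were near 0 (0.10 and -0.06). Of 7 uptake or regulatory genes 1 was called lower. Srebf2, the transcription factor that activates this pathway, was not called (-0.38 ± 0.16), nor were Scap (-0.33 ± 0.14) and Insig1 (-0.23 ± 0.21). Leaving out single arrays gave 6 to 9 called lower in this list.

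Of 8 genes of fatty acid synthesis 5 were lower and 0 higher. The desaturases Fads1 and Fads2, which make long polyunsaturated chains, changed by -1.57 ± 0.14 and -1.66 ± 0.16, and Fads1 was at 11.84, 11.38, 11.81, 11.80 and 11.38 in the epiSCs and 10.10, 10.20, 9.76, 10.14 and 10.17 in the rESCs (adjusted p = 1.81e-05). The stearoyl desaturases Scd1 and Scd2 changed by -1.41 ± 0.25 and -1.40 ± 0.23. Acly, which supplies acetyl-CoA, was not called (-0.14 ± 0.13), and neither was the elongase Elovl6 (0.31). Lipoprotein lipase, Lpl, was at 9.05, 8.80, 8.81, 8.87 and 8.73 in the epiSCs and 6.92, 7.42, 7.12, 6.76 and 6.03 in the rESCs (log2 change -2.003 ± 0.22, adjusted p = 5.87e-05). The lipid-binding protein Fabp3 rose, at 8.19, 7.08, 8.35, 8.15 and 10.55 in the epiSCs and 11.09, 10.68, 11.25, 11.44 and 11.54 in the rESCs (log2 change 2.73 ± 0.50, adjusted p = 0.00131), with the BL6 epiSCs just below the lowest rESC line. The rESC medium held serum and the epiSC medium a serum substitute, so lipid supply and state cannot be told apart here.

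Of 57 genes of oxidative phosphorylation, 1 was called (Uqcrc1, 0.64 ± 0.13) and the median change was 0.02, with a range from -0.43 to 0.98. Uqcrc1 was not called in the 4 lines with the line as a block (adjusted p = 0.0175), 3 genes were called higher without the BL6 epiSC or the J2.3 rESC array, and over all alternatives 0 to 5 were higher and 0 to 2 lower. Of 20 genes of the TCA cycle 2 were higher and 1 lower, a share called (15%) below that of all genes tested (25.2%). The cytosolic dehydrogenase Idh1 was at 9.69, 9.63, 9.87, 9.80 and 9.59 in the epiSCs and 9.10, 9.07, 8.74, 9.16 and 8.90 in the rESCs (log2 change -0.72 ± 0.12, adjusted p = 0.000776). Of 20 glycolysis genes 3 were higher and 1 lower, a share called (20%) also below that of all genes tested. The platelet-type phosphofructokinase Pfkp was at 6.87, 6.02, 6.90, 7.32 and 8.69 in the epiSCs and 9.38, 9.76, 9.63, 9.90 and 9.22 in the rESCs (log2 change 2.42 ± 0.39, adjusted p = 0.000609), whereas its paralogs Pfkl and Pfkm were not called (-0.55 and -0.26). The kinase Pdk4, which restrains pyruvate entry into mitochondria, changed by 1.07 ± 0.16, and Ldha and Slc2a1 were not called (-0.29 and -0.25).

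**Figure D4:**
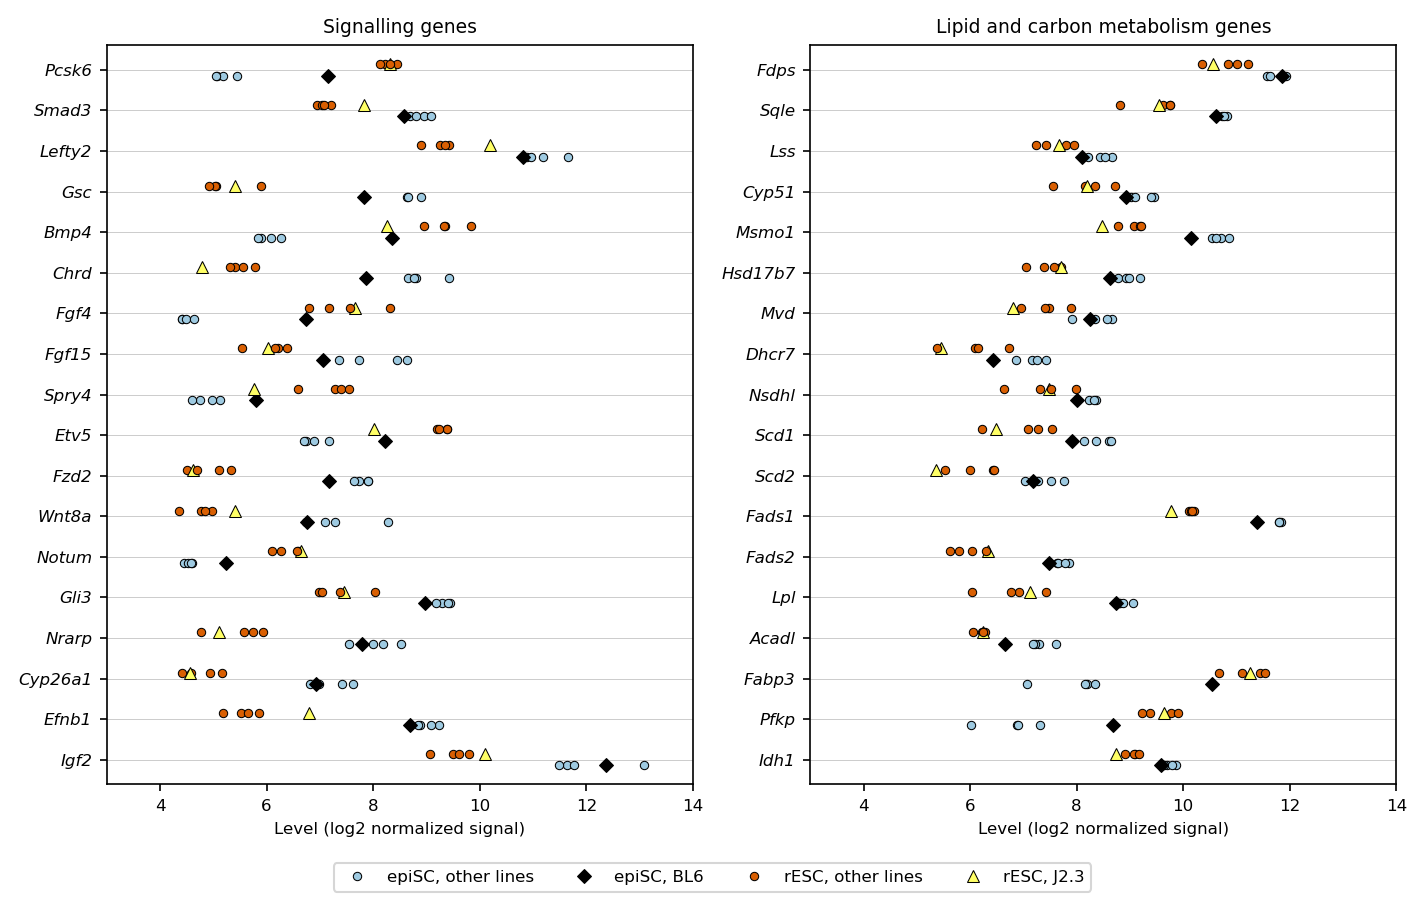
Level of 18 signalling genes and 18 genes of lipid and carbon metabolism (x axis, log2 normalized signal) on the 10 arrays, with epiSCs below and rESCs above each gene's line. For the sterol and desaturase genes every epiSC level lies to the right of the rESC levels except for Dhcr7, where BL6 does not, and BL6 (black diamond) is set off among the epiSCs for the genes that rose, such as Pcsk6, Bmp4, Fgf4, Fabp3 and Pfkp.

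Germ line genes listed as kept silent by promoter methylation after implantation gave 6 higher and 1 lower of 16, with a median change of 1.56. Methylation was not measured here. Of 29 members with a named probe, 16 passed the detection filter. A member undetected on every epiSC array passed only through all 5 rESC arrays, so it could hardly be called lower. The split and the median thus depended in part on the filter. Tdrd12, a helicase of the piRNA pathway that silences transposons, was at 4.73, 4.74, 5.69, 4.74 and 8.06 in the epiSCs and 9.93, 9.71, 9.38, 10.18 and 9.28 in the rESCs (log2 change 4.10 ± 0.56, adjusted p = 0.00023). Gtsf1l, a relative of a piRNA pathway factor, was at 4.52, 4.78, 5.79, 4.78 and 9.10 in the epiSCs and 10.32, 10.51, 10.15, 10.46 and 9.89 in the rESCs (log2 change 4.47 ± 0.72, adjusted p = 0.000627), and Tex19.1, which restrains retrotransposons in germ cells, was at 4.96, 4.48, 6.36, 5.35 and 8.69 in the epiSCs and 9.26, 10.36, 11.18, 9.19 and 9.39 in the rESCs (log2 change 3.91 ± 0.70, adjusted p = 0.00127). The rESCs lay above every epiSC array in the 3 genes, and the BL6 epiSCs were within 1 log2 unit of an rESC array in Gtsf1l and Tex19.1.

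The helicase Ddx4 was detected on all rESC arrays and no epiSC array but only at least 1.47-fold higher (5.57, 5.83, 5.79, 5.74 and 5.66 in rESCs). Stag3, a meiotic cohesin subunit, rose by 1.53 ± 0.35 (adjusted p = 0.00545). That call was lost in 9 of 20 alternative fits, among them those without the BL2 epiSC, BL2 rESC, BL3 epiSC, BL3 rESC, BL4 epiSC, BL7 epiSC and BL7 rESC array. The remaining higher member, Zfp42, is also a naive pluripotency gene (4.78 ± 0.84). The Tudor gene Tdrkh was lower (-2.45 ± 0.22). Several members had large changes with wide errors and were not called, among them Rhox5 (3.37 ± 1.05, adjusted p = 0.0253) and Tuba3a (2.45 ± 0.67, adjusted p = 0.014). Without the BL6 epiSC array 10 members were called higher, and without it and the J2.3 rESC array 11. On probes detected on at least 8 arrays, a filter that does not test genes detected in only 1 state, the number was 2.

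The promoters of members that rose together are shown because such genes are known in mouse ESCs as targets of a Polycomb complex that carries an E-box binding pair and the repressor E2F6. RefSeq (GRCm38.p6) windows from 250 bases before to 50 after the start were searched on both strands for CACGTG (E-box) and GCGGGA (E2F6 motif), which can share at most 1 base and are printed in capitals. The windows are chr13:112652261-112652560 for Ddx4, minus strand, chr5:138280259-138280558 for Stag3, plus strand, chr11:121145893-121146192 for Tex19.1, plus strand, and chr7:35537666-35537965 for Tdrd12, minus strand.
Ddx4: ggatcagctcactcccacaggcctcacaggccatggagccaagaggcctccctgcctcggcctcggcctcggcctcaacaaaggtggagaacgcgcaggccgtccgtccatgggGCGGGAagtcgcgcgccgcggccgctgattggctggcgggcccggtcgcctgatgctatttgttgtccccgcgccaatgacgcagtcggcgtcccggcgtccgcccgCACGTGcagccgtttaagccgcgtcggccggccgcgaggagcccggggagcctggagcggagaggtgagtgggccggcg
Stag3: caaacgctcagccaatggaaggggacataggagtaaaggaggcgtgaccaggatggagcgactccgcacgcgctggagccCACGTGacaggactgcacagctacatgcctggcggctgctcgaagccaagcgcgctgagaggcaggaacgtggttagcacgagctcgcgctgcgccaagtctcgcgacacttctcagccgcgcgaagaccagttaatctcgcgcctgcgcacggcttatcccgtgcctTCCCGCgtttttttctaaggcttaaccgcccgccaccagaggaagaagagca
Tex19.1: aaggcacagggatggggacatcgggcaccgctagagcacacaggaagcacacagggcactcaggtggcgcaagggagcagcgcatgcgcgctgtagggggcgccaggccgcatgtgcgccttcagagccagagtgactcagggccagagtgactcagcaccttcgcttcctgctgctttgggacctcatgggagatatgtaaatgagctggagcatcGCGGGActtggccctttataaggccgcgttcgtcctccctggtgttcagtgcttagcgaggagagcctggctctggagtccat
Tdrd12: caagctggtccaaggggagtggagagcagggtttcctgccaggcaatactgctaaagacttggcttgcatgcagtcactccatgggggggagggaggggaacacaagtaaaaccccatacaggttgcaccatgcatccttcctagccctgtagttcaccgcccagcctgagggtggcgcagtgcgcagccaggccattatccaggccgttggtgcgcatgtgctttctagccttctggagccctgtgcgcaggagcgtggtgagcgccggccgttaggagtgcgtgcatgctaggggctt

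Ddx4 and Stag3 held both motifs, Tex19.1 held the E2F6 motif only, and Tdrd12 held neither of them in this window. Gtsf1l and Zfp42, the others that rose, also held neither, so 2 of the 6 held the E-box and 3 the E2F6 motif. Over all 27025 RefSeq promoters of this length, 7.24% held the E-box, 20% the E2F6 motif and 2.05% both. Among the 6671 with a gene tested the shares were 10.6%, 37.1% and 4.03%. Of 14 germ line genes with a promoter in the table, 2 held the E-box and 7 the E2F6 motif. The median number of CpG dinucleotides was 13.5 over the 6 members that rose and 21 over the promoters of genes tested. The 2 members with both motifs were those with the smaller rises.

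In the Polycomb list of 22, 6 were higher and 2 lower. The chromobox gene Cbx7, which is characteristic of ESC Polycomb complexes, was at 6.43, 6.36, 6.05, 6.63 and 7.08 in the epiSCs and 8.09, 7.83, 7.31, 8.15 and 8.15 in the rESCs (log2 change 1.39 ± 0.22, adjusted p = 0.000486), and the PRC2 accessory gene Mtf2 and the PRC1 gene Rybp changed by 1.09 ± 0.17 and 0.81 ± 0.14. Phc2 and Ring1 were lower (-1.76 ± 0.20 and -1.19 ± 0.14), and the catalytic subunit Ezh2 and its partner Suz12 were not called (0.11 and 0.64). Among 13 SWI/SNF subunits 3 were lower and 0 higher: the ATPase Smarca2 was at 8.68, 8.65, 9.24, 8.76 and 8.08 in the epiSCs and 5.72, 6.02, 7.01, 5.99 and 5.87 in the rESCs (log2 change -2.56 ± 0.26, adjusted p = 3.48e-05), Smarce1 changed by -1.54 ± 0.17 and Arid1b by -0.83 ± 0.17, while the alternative ATPase Smarca4 was not called (-0.24).

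The nucleosome-binding gene Hmgn3 was at 9.88, 10.13, 10.001, 9.71 and 9.18 in the epiSCs and 6.83, 7.69, 8.42, 6.93 and 7.09 in the rESCs (log2 change -2.38 ± 0.30, adjusted p = 0.00013). The demethylases Kdm5b and Kdm4c were higher (1.17 ± 0.15 and 1.33 ± 0.26), and Kdm6b, which removes the Polycomb mark, was lower (-1.28 ± 0.13). Dot1l changed by 0.85 ± 0.11. The chromatin remodelling list as a whole had 7 higher and 5 lower of 31.

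Of 29 cell cycle genes 6 were higher and 2 lower, a share called (27.6%) near that of all genes tested (25.2%). Only 3 were higher when the BL3 epiSC array was left out. Cyclin E1, Ccne1, was at 6.64, 6.80, 6.38, 6.86 and 7.23 in the epiSCs and 8.48, 8.64, 7.93, 8.31 and 8.36 in the rESCs (log2 change 1.56 ± 0.18, adjusted p = 7.13e-05) and cyclin D2, Ccnd2, changed by -1.78 ± 0.29. The inhibitor Cdkn1c was at 11.19, 11.41, 12.08, 11.64 and 11.05 in the epiSCs and 7.77, 8.11, 9.27, 10.02 and 8.56 in the rESCs (log2 change -2.73 ± 0.38, adjusted p = 0.000263), and the inhibitor locus Cdkn2a was at 5.25, 5.21, 4.68, 5.19 and 4.68 in the epiSCs and 5.96, 6.50, 7.57, 6.36 and 6.34 in the rESCs (log2 change 1.54 ± 0.27, adjusted p = 0.000969), highest in the J2.3 rESCs and at 7.16 in MEFs. None of 7 cell cycle kinases or phosphatases was called, Cdk1 and Cdk2 included (0.05 and -0.12), and Pcna was not called (-0.09).

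Of 16 surface antigens tested 5 were higher and 3 lower. The complement regulator Cd59a was at 11.09, 10.96, 9.99, 12.24 and 9.33 in the epiSCs and 7.27, 7.23, 7.65, 7.55 and 6.64 in the rESCs (log2 change -3.45 ± 0.45, adjusted p = 0.000169) and the receptor Cd40 at 9.46, 8.89, 8.58, 9.41 and 8.60 in the epiSCs and 5.99, 5.52, 6.43, 6.33 and 6.35 in the rESCs (log2 change -2.87 ± 0.23, adjusted p = 7.68e-06), both fully separated. The tetraspanin Cd9, a surface marker of ESCs, was at 8.54, 8.11, 8.34, 8.82 and 9.51 in the epiSCs and 10.78, 10.90, 10.81, 11.11 and 10.46 in the rESCs (log2 change 2.15 ± 0.24, adjusted p = 5.97e-05), and Pecam1 and Icam1 changed by 1.99 ± 0.31 and 2.3 ± 0.41. Cd44, Cd81 and Ncam1 were not called (0.71, 0.02 and -0.51). Without the J2.3 rESC array 5 antigens were called lower.

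Of 31 redox and metal genes 10 were higher and 2 lower, with a median of 0.69, and 5 were higher in the 4 lines with the cell line as a block, against 7 in the same arrays without it. Metallothionein Mt1 was at 11.98, 11.004, 12.17, 12.14 and 12.75 in the epiSCs and 13.74, 13.18, 13.72, 13.46 and 13.55 in the rESCs (log2 change 1.52 ± 0.27, adjusted p = 0.00106), and the glutathione transferases Gsta4 and Gsto1 changed by 1.51 ± 0.23 and 1.27 ± 0.22. The extracellular peroxidase Gpx3 was lower (-1.23 ± 0.23), and the regulator Nfe2l2 was not called (0.49). The small heat shock protein Hspb1 was at 7.04, 6.96, 7.67, 7.42 and 9.44 in the epiSCs and 10.90, 10.68, 11.16, 10.14 and 10.56 in the rESCs (log2 change 2.98 ± 0.41, adjusted p = 0.000245), whereas none of 11 endoplasmic reticulum stress genes was called. In the interferon and MHC class I list 3 of 21 were higher and 0 lower, and in the 4 lines 3 were lower with the line as a block and 1 without it. The non-classical gene H2-M5 was at 4.55, 4.43, 4.74, 4.39 and 5.53 in the epiSCs and 7.48, 7.77, 6.86, 7.65 and 7.21 in the rESCs (log2 change 2.67 ± 0.24, adjusted p = 1.55e-05), and H2-K1, H2-D1 and B2m were not called (-0.73, -0.71 and -0.49). H2-D1 was called lower in the 4 lines with the line as a block (-1.002, adjusted p = 0.00715) and also without the J2.3 rESC array. H2-K1 was called lower without the BL6 epiSC array.

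Other lists held few calls, and counts as low as theirs moved with single arrays. The hypoxia list had 1 lower of 9 (the mitophagy receptor Bnip3l, -0.98 ± 0.16), with 2 lower without the BL3 rESC array and 3 in the 4 lines with the line as a block. The amino acid stress list had 2 lower of 17, but 4 without the BL6 rESC array and 0 without the BL3 epiSC, BL4 epiSC, BL2 epiSC or BL3 rESC array. In the p53 list 1 was higher and 1 lower of 14, and in the serine and one-carbon list 2 were higher and 1 lower of 13, with Cbs, the first enzyme of transsulfuration, detected only in rESCs (1.18 ± 0.17). Of 11 primitive endoderm markers 3 were lower (Gata6, Sox17 and Foxa2) and 1 higher (the laminin Lama1). The summed signal of 12 such markers was 1368 to 1664 in epiSCs, 1221 to 2655 in rESCs and 16977 in MEFs. Trophectoderm markers gave 2 higher of 5 tested. Their summed signals were 738 to 1242 in epiSCs, 4805 in the J2.3 rESCs and 1596 to 2045 in the other rESCs.

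A female line that reverts can regain activity of its silent X chromosome, and Xist, the RNA that coats the silent X, is then lost. The Xist probe with the highest mean was at 8.32 in the BL7 epiSCs and 4.99 in the BL7 rESCs, while the Y-linked gene Eif2s3y was at 4.28 and 4.42 there, not detected on either array. In the BL7 rESCs the median level of 273 X-linked genes lay 0.33 above that of 7886 autosomal genes, against 0.03 in the BL7 epiSCs. In the same line the median X-linked change was 0.16 and the median autosomal change 0.0034.

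The lines BL2, BL3 and BL6 expressed Eif2s3y in both states (5.86 to 8.26) and had Xist at 4.83 or below. Their X-linked genes lay below the autosomal median, from -0.34 to -0.29 in rESCs and -0.24 to -0.04 in epiSCs, and their median X-linked changes were -0.24, -0.12 and -0.08. The J2.3 rESCs had no detected Eif2s3y (4.53), Xist at 6.39 and an X-linked median 0.22 above the autosomes. MEFs, whose markers were highest in this array, had Xist at 4.52. The source of the Xist signal in the J2.3 rESCs was not tested. The BL4 epiSCs had both Xist (6.06) and Eif2s3y (7.40). Over all 10 arrays 30 of the 273 X-linked genes were called higher and 47 lower (10.99% and 17.2%), against 10.7% and 14.4% of autosomal genes. No test of these array medians was made.

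**Figure D5:**
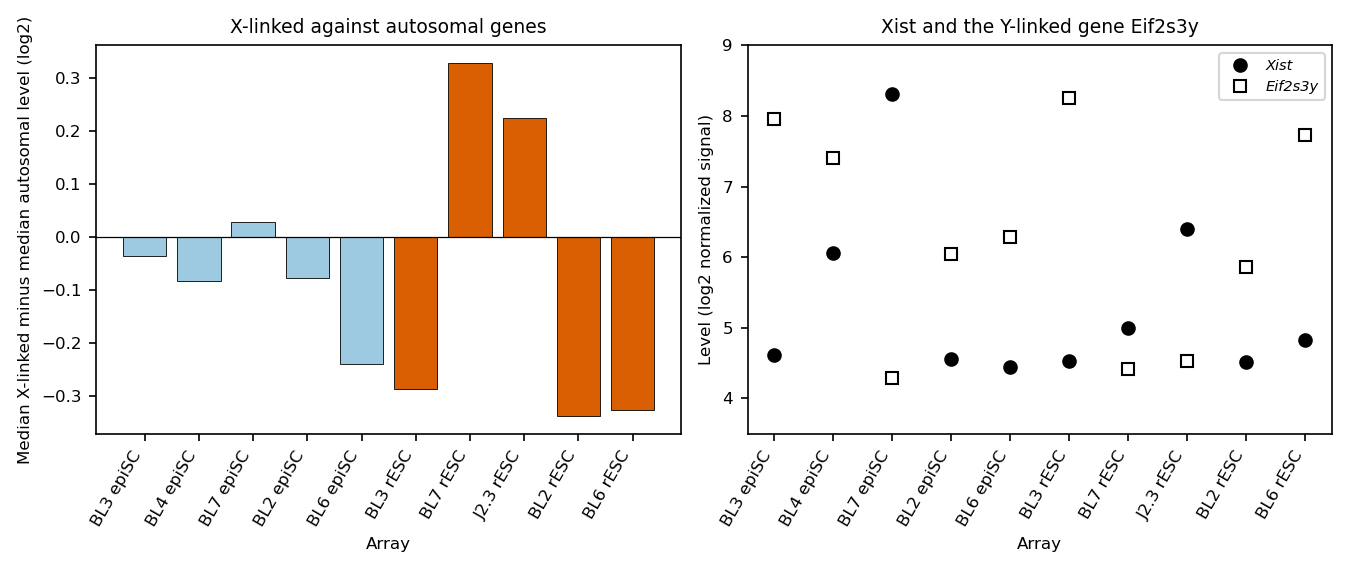
Left, median level of 273 X-linked genes minus that of 7886 autosomal genes (log2) on each array; right, level of Xist and of the Y-linked gene Eif2s3y (log2 normalized signal). The BL7 and J2.3 rESCs have the highest X-linked medians (0.33 and 0.22) and no detected Eif2s3y.

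The 4 lines with both states differed in the size of the change. Over the 1429 probes called higher, the median change was 1.11 in BL2, 1.10 in BL3, 1.28 in BL7 and 0.60 in BL6, and over the 1679 called lower it was -1.03, -1.06, -1.23 and -0.79. For the 15 largest rises BL6 had the smallest change of the 4 lines in 14, with a median of 1.14 against 4.34 to 5.11 in the other lines. For the 15 largest falls the line medians were closer, from -4.42 in BL7 to -3.62 in BL6. The smallest change of the 4 lines was in BL6 for 9 of these falls, BL3 for 4, BL2 for 2 and BL7 for 0. With the cell line as a fixed block 2532 of 13616 probes were called (18.6%). Without BL6 this paired fit called 3889 probes, and without BL2, BL3 or BL7 it called 481, 320 and 705, so its count rested on which 3 lines were kept.

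The change did not differ detectably between genotypes. No probe passed for the interaction of state with genotype (0 of 13418, 0%), and 266 had an unadjusted p under 0.05 (1.98%). Without any effect a share of about 0.05 would lie there, so these p-values ran high and the absence of calls carries little information. The genes with the smallest p were Rgma, Zfp961, H2-K1, Itpr3 and Ddit4l. Rgma, a co-receptor for BMPs, was at 7.16, 7.58, 9.10, 5.51 and 5.32 in the epiSCs and 4.83, 4.56, 4.77, 4.39 and 4.60 in the rESCs. It fell by 3.25 in Blimp1 +/- and by 0.83 in Blimp1 -/- arrays (interaction adjusted p = 0.998), and its Blimp1 -/- epiSC levels lay below the Blimp1 +/- ones. Its main call was lost in 13 of 20 alternative fits. Each genotype and state had 2 or 3 arrays, and a p that misses the threshold does not show equal changes. The BL6 epiSC and J2.3 rESC arrays, which stood apart above, were both Blimp1 -/-. Genotype and the state of these cultures cannot be told apart, and the interaction was not fitted without them.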

How the data were processed

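The deposited table held non-normalized bead intensity values and detection p-values for every probe, per the file headers. The headers do not name the exporting software, and its version is not given in the sources used here. A second deposited table held log2 values that the authors had transformed with a variance-stabilizing method and quantile normalized. It was used only as an alternative.

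The intensities of the 10 arrays were background corrected with the detection p-values and quantile normalized (neqc in limma 3.58.1, R 4.3.3, offset 16). Probes with a detection p under 0.01 on at least 5 of the 10 arrays were tested with lmFit and eBayes at an adjusted p under 0.01. Of the 45281 probes, 17604 had 1 gene symbol, and each gene was represented by 1 probe. A fold written as "at least" set the brighter group's mean against the dimmest signals detected, since the other group was undetected on every array. Two-sided limma p-values measure the spread between single cultures of different lines. The main fit pooled genotypes and treated the arrays of a line as independent.

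The cell line pairs the states by design. Deviations of the paired arrays from their group means correlated at 0.45 (BL3), 0.26 (BL7), 0.52 (BL2) and -0.18 (BL6). Pairs from different lines ranged from -0.52 to 0.39. The BL2 rESCs with the BL6 epiSCs (0.39) and the BL3 rESCs with the BL7 epiSCs (0.33) exceeded the BL7 pair. The 2 columns labelled J2.3 Epi matched no sample and were not used here. The members, lists and rules were chosen with earlier results of these data known. Genes named were the 4 markers, the 15 largest rises and falls with groups that did not overlap, up to 5 called members of each role by adjusted p, uncalled members of the lists, and the 5 genes with the smallest interaction p. Alternatives changed the filter, background correction, value table, arrays fitted, prior, genotype term, line block and arrays kept. Leaving out the BL6 epiSC and J2.3 rESC arrays together was added after seeing the data. The fit was tested on simulated data.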

Additional observations from a re-analysis of the deposited data

Results flagged for a closer look

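Of 418 groups of 5 arrays (209 genes named or drawn, 2 states each), 47 had 1 array set apart from the other 4 by Dixon's criterion at the 95% level, where chance flags about 1 in 20 groups. Values are log2 levels.

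The BL6 epiSC array was the one set apart in 25 groups. It was high among the epiSCs for Acly (11.63), Apoc1 (8.74), Bmp4 (8.35), Cldn4 (8.37), Fam25c (6.84), Fgf4 (6.74), Gsta4 (9.85), Gtsf1l (9.1), Hspb1 (9.44), Icam1 (8.11), Krt17 (6.07), Notum (5.23), Pcsk6 (7.16), Pla2g1b (9.41), Rbmxl2 (8.15), Robo4 (6.26), Rybp (8.82), Tdrd12 (8.06), Tuba3a (7.35) and Zscan4c (5.24). It was low among the epiSCs for Efna5 (8.67), Gal (7.1), Grb10 (11.13), Sema3f (6.93) and Zeb1 (7.97).

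The J2.3 rESC array was set apart in 14 groups. It was high among the rESCs for Dnmt3l (13.01), H2-D1 (8.92), Krt18 (9.91), Lox (10.02), Phc2 (8.26), Plxna2 (5.9), Smad3 (7.82) and Smarca2 (7.01). It was low for Esrrb (11.15), Etv5 (8.01), Fads1 (9.76), Mtf2 (10.64), Nnat (4.49) and Tdrkh (6.78).

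Other arrays were set apart in 8 groups. The BL7 epiSC array was high for Gsk3b (9.32) and Ptn (10.23), and the BL4 epiSC array was low for Tm7sf2 (4.53). Among the rESCs BL6 was low for Krt17 (7.7) and Sqle (8.81), BL3 was high for Gdpd3 (5.77) and low for 6330403K07Rik (5.13), and BL2 was low for Acadl (6.06).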

How the results depend on the processing

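No called probe changed direction under any of the 20 alternatives in which it was tested. The count of 3108 calls lay between 2306 and 3420 when 1 array was left out. It was 2678 of 45281 without a filter on dim probes, 2311 of 11196 with detection on at least 8 arrays, 3120 without background correction, 3053 in the authors' table, 3935 with 22 arrays fitted together and 3845 without the BL6 epiSC and J2.3 rESC arrays. With the cell line as a replicate block 2532 probes were called, against 2735 in the same 4 lines without it, and the paired count ran from 320 (without BL3) to 3889 (without BL6). The interaction called 0 probes under every alternative run, with 252 to 1591 at an unadjusted p under 0.05. Of 155 called genes named or drawn, 139 were called under every alternative that tested them. Detection on at least 8 arrays tested 154 of the 209 genes, and the call of none of these changed. The calls of Ooep, Fam25c, Fgf4, Igf1r, Stag3 and Uqcrc1 were lost with the block and kept in the same 4 lines without it, while Prrx1 and Rgma lost theirs in both fits. Fzd5 gained a call with the block and H2-D1 in both fits. From the 10 arrays to the 4 lines without and with the block, the count of lower BMP members went from 5 to 4 and 2, lower matrix members from 3 to 5 and 5, higher chromatin members from 7 to 5 and 4, higher redox members from 10 to 7 and 5, and lower interferon and MHC members from 0 to 1 and 3. Other causes of change were not tested. Each state had 1 array per line, and probes near background limit folds of dim genes to bounds.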

Other observations

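Imprinted genes, which are expressed from 1 parental allele, were listed after results were seen, so their counts are a description with no test. Of 48 listed, 23 were tested, of which 0 were called higher, 8 lower and 15 not called, with a median change of -0.51 against -0.03 over all genes. The 8 were Igf2, Cdkn1c, Dlk1, Grb10 and Nnat, given above, and Mest, a hydrolase-like protein (-1.08), Ndn, a growth suppressor in neurons (-1.69), and Gnas, the G protein alpha subunit locus (-1.63), which were named after their values were seen. On the MEF array these 8 were at 14.37 (Igf2), 12.25 (Grb10), 12.12 (Cdkn1c), 11.59 (Dlk1), 9.88 (Ndn), 9.46 (Gnas), 7.86 (Mest) and 4.49 (Nnat). The part of the feeders in their falls was not tested. In the 4 lines with the line as a block Mest was not called (adjusted p = 0.0168), while Peg3 and H13 were (adjusted p = 0.00199 and 0.00551), with changes over the 10 arrays of -0.84 and -0.62.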
